A study of Mus musculus with 15 samples.

Results

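The comparison set 3 liver libraries of mice on a NASH diet that carried a scrambled hairpin against 3 liver libraries of mice on chow. It used 6 of the 15 libraries of the series. NASH, nonalcoholic steatohepatitis, is fatty liver with inflammation and scarring. The 6 libraries were taken by their labels: the NASH diet group received adeno-associated virus of serotype 8 (AAV8) in which the H1 promoter drove a scrambled short hairpin RNA, and the chow group received AAV8 in which the liver-specific TBG promoter drove green fluorescent protein (GFP). All animals were male C57BL/6J mice, kept 16 weeks on their diet; the NASH diet was the FPC diet with sugar water, and the chow group drank normal water. The labels give no age. A second NASH diet control, 3 liver libraries with TBG-driven GFP, shared its vector with the chow group and no library with the scramble group. Its values stand beside those of the scramble group. Chow and scramble livers differed in diet and in vector at once, and their counts came from separate deposited tables, so the effects of diet, promoter, cargo and table cannot be told apart in this comparison.

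A NASH diet loads hepatocytes with fat. Fat-laden hepatocytes recruit monocytes that become lipid-associated macrophages, and they activate stellate cells, which lay down fibrillar collagen. Sterol entering the liver restrains the SREBP2 programme of cholesterol synthesis, and fatty acids are ligands of PPARA, the receptor that controls fat oxidation. In mouse liver many genes also differ between the sexes through the pulsatile release of growth hormone. In bulk tissue, fewer cells of a type and less RNA per cell cannot be told apart, which holds for each gene group below.

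Total counts ran from 20435244 to 23467867 in the 3 scramble libraries and from 15276879 to 17983991 in the 3 chow libraries. Albumin, the main hepatocyte product, took 4.53 to 6.70% of counts over all 15 libraries. The labels do not say that libraries came from separate animals, so p-values measure the spread between these libraries, which may be technical. The scramble libraries were closer to each other than those of the other groups: over 14091 genes the median SD of log2 levels was 0.12 in the scramble group, 0.26 in the chow group and 0.20 in the GFP NASH group. Levels are given as CPM, the count of a gene per 1000000 counts of its library after library sizes were scaled by TMM, a scaling method of edgeR. Among genes with at least 10 CPM, scramble libraries 1 and 2 differed by over 0.3 on the log2 scale in 1134. Scramble library 3 lay between them in 91.8% of these. The highest such share of genes for a library of another group was 80.2%, in Activin A library 3. Chi-square per degree of freedom was 18.3 between scramble libraries 1 and 2, and 7.34 and 8.51 between library 3 and these, beyond sampling noise. They were counted as 3 samples. Whether library 3 is independent of libraries 1 and 2 was not tested. If it is not, the standard errors and p-values given below for the scramble group are too small. In the GFP NASH group, chi-square per degree of freedom was 35 between libraries 1 and 2, and 71.4 and 48 between library 3 and these; that library entered no test of scramble against chow.

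**Figure D1:**
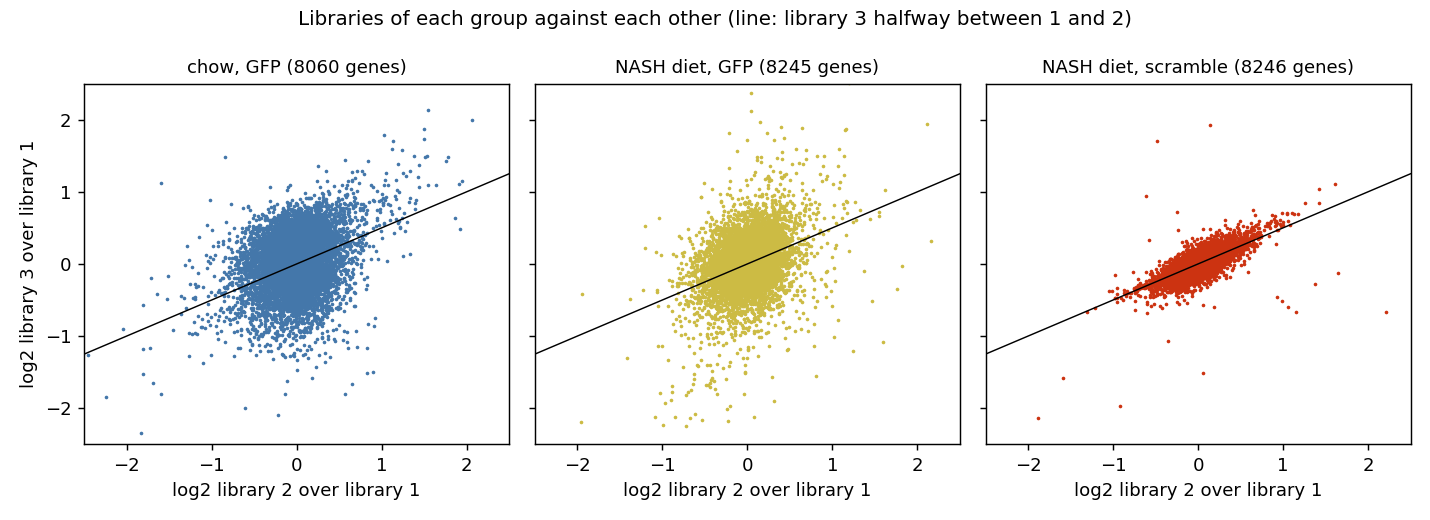
Log2 ratio of library 2 over library 1 (x axis) against library 3 over library 1 (y axis) for genes with a mean of at least 10 CPM, in the chow, GFP NASH diet and scramble NASH diet groups; each point is a gene. The scramble points lie close to the line on which library 3 is the mean of libraries 1 and 2, and the chow and GFP NASH points are spread more widely.

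Between scramble NASH diet livers and chow livers, 2416 of 14677 genes tested were called higher and 1880 lower by edgeR's quasi-likelihood test at an adjusted p under 0.05, which is 29.3% of genes, 16.5% higher and 12.8% lower. The higher calls held the larger folds: 1525 genes were called higher and 551 lower by at least 2-fold, and 148 against 55 by at least 8-fold. In 47.4% of genes the 3 scramble libraries did not overlap the 3 chow libraries. Without scramble library 3, 1468 genes were called higher and 925 lower, and without scramble library 2 they numbered 1401 and 957. The lower calls also fell to 1192 without scramble library 1. In the GFP arm against the same chow libraries, 1607 of 14388 genes were called higher and 838 lower (17%, 11.2% higher and 5.82% lower). These shares over all genes are the background for the counts of list members below. They differ between the scramble comparison and the GFP arm, so list counts set side by side do not test a difference between them. The last comparison below is that test. Scaling by library size alone moved the median log2 fold change in the scramble comparison, over every gene tested, from 0.01 to 0.29, and the share of calls that were higher from 56.2% to 83.8%; the changes below are relative to TMM scaling.

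**Figure D2:**
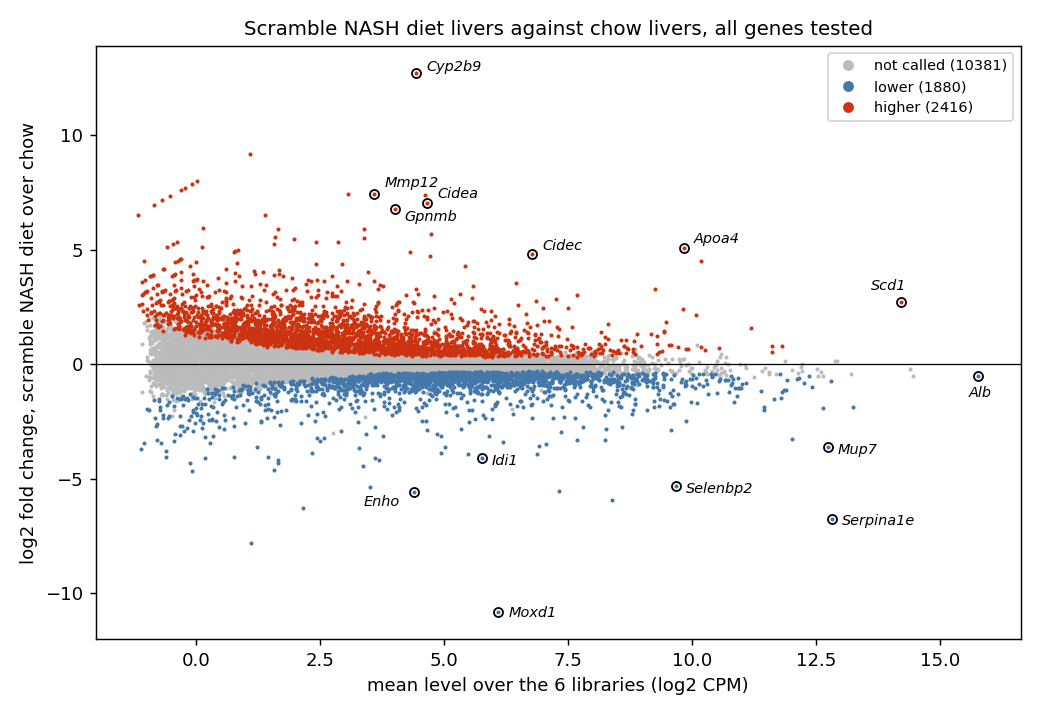
Log2 fold change of scramble NASH diet over chow (y axis) against mean level in log2 CPM (x axis) for the 14677 genes tested; red points were called higher, blue points lower and grey points were not called. Gpnmb, Mmp12, Cidec and Apoa4 stand high among the genes called higher, and Serpina1e, Selenbp2 and Idi1 stand low among those called lower.

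Gpnmb, a lysosomal glycoprotein of lipid-loaded macrophages and the target of the hairpin arm of the study, stood at 0.243, 0.149 and 0.483 CPM in chow livers and at 26.2, 36.4 and 32.8 CPM in scramble livers. It stood at 40.4, 25.9 and 24.9 CPM in GFP NASH livers. Both NASH diet groups lay far above chow and overlapped each other, and in the scramble comparison Gpnmb rose by 6.75 ± 0.29 on the log2 scale (log2 fold change ± SE, edgeR adjusted p = 1.33e-06). Inhba encodes the activin A subunit that the study expressed in another arm. Its levels were 12.7, 10.7 and 9.45 CPM in chow and 4.76, 6.04 and 5.86 CPM in scramble livers, and the groups did not overlap. Inhba fell by 0.96 ± 0.19 on the log2 scale (edgeR adjusted p = 0.00466), and its log2 fold change in the GFP arm was -0.42, which was not called.

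Most genes of lipid-associated macrophages rose, but their summed level did not. It ran from 22800 to 30800 CPM in chow and from 23000 to 24100 CPM in scramble livers. For 1 member all scramble libraries lay below all chow libraries. Of 20 members, 17 were called higher, with a median log2 fold change over the list of 1.76 against 0.01 over all genes tested; in the GFP arm 16 of 20 were called higher. Gpnmb and Mmp12 had 13 and 6 counts over the 3 chow libraries. Both passed the filter on low counts through the NASH diet libraries in which they are high. Mmp12, the macrophage elastase, stood at 0.122, 0.224 and 0.069 CPM in chow and 18.5, 27.6 and 25.3 CPM in scramble livers. All 3 scramble libraries were above all chow libraries, and the log2 fold change was 7.41 ± 0.34 (edgeR adjusted p = 1.37e-06). Trem2, the lipid receptor of these cells, was chosen after its values were seen: it stood at 0.73, 0.522 and 0.897 CPM in chow and 7.59, 9.79 and 9.19 CPM in scramble livers. Cd5l, a secreted macrophage protein that binds lipid, rose by 2.20 ± 0.16. Of the 14 monocyte and pan-macrophage genes, 13 rose, with a median of 1.82, and 13 of 13 rose in the GFP arm. Csf1r, the receptor for the macrophage growth factor, stood at 21.2, 29.5 and 26.8 CPM in chow and 85.5, 97.1 and 95 CPM in scramble livers. The endolysosomal marker Cd68 rose by 2.66 ± 0.22 and Cybb, the catalytic subunit of the phagocyte oxidase, by 2.34 ± 0.20.

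Resident Kupffer cell genes were mixed. Of 11 members, 5 rose and 1 fell. Clec4f, a lectin restricted to Kupffer cells, stood at 43.2, 53.4 and 60.8 CPM in chow and 113, 106 and 105 CPM in scramble livers, without overlap, and it rose by 1.07 ± 0.14. The phagocytic receptor Vsig4 rose by 1.43 ± 0.19. Timd4, named after its values were seen and which marks long-resident Kupffer cells, had a log2 fold change of 0.67 and was not called (adjusted p = 0.07). The member that fell was C6, a complement component that hepatocytes also make, which dropped by 1.64 ± 0.13. Without chow library 2, 2 members were called lower.

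Of 20 inflammatory mediators, 16 passed the filter on low counts, and 13 of these were called higher and 1 lower. Some, such as Ccl2 with 14 counts over the 3 chow libraries, passed through the NASH diet libraries in which they are high. The count of higher calls is therefore partly set by the filter. Only 8 were called higher without scramble library 2. Vcam1, the adhesion molecule that holds leukocytes to endothelium, stood at 7.78, 7.53 and 10.4 CPM in chow and at 34.1, 34.9 and 37.9 CPM in scramble livers. The scramble values lay well above chow, and Vcam1 rose by 2.07 ± 0.15 (edgeR adjusted p = 2.1e-05). Ccl2, the chemokine that draws monocytes, rose by 2.99 ± 0.44, and Il18bp, which neutralises interleukin 18, by 1.40 ± 0.14. The member that fell was Cxcl1, a neutrophil chemokine, at 38.1, 10.5 and 16.6 CPM in chow and 7.28, 6.57 and 6.65 CPM in scramble livers. Its levels in GFP NASH livers were 10.6, 66.1 and 6.83 CPM, so library 2 of that group was the highest of all 9.

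Interferon-stimulated genes rose in 17 of 23 cases, with a median log2 fold change of 1.16, and 11 of 23 rose in the GFP arm, where the median was 0.80. Oas2, which senses viral RNA, stood at 3.65, 3.88 and 2.83 CPM in chow and 9.31, 12.7 and 11.5 CPM in scramble livers. The groups did not overlap, and Oas2 rose by 1.71 ± 0.21. Ifit2, an interferon-induced RNA-binding protein, rose by 2.09 ± 0.26 and Rsad2, the antiviral enzyme viperin, by 1.19 ± 0.15; the log2 fold change of Rsad2 in the GFP arm was 0.68, which was not called. Without chow library 2, 1 member was called lower. The motif GAAANNGAAA, the core bound by interferon-activated factors, was searched on both strands of RefSeq promoter windows (GRCm38.p6, 250 bases before to 50 after each start). It stood in 10 of the 17 members with a window (58.8%) and in 3.99% of all genes with a window. All 7 MHC class II genes tested rose, in both NASH diet groups. Cd74, the invariant chain that escorts class II molecules, stood at 47.3, 58.8 and 67.5 CPM in chow and 162, 254 and 210 CPM in scramble livers, without overlap.

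Lymphocyte genes were at low levels. Of 12 T and NK cell genes 3 passed the filter on low counts. Cd8a, the co-receptor of cytotoxic T cells, rose from at most 0.122 CPM in chow to between 0.573 and 0.713 CPM in scramble livers. Cd8a had 3 counts over the 3 chow libraries and passed the filter through the scramble libraries in which it is high. Its call is therefore partly set by the filter. Cd4, the co-receptor of helper T cells, was called lower, but not without scramble library 1, scramble library 2 or chow library 1. Of 7 B and plasma cell genes tested, 3 fell and 1 rose. Jchain, which joins immunoglobulin polymers, stood at 2.49, 2.68 and 3.45 CPM in chow and at 0.794, 0.97 and 0.555 CPM in scramble livers; in GFP NASH livers it stood at 3.62, 3.31 and 7.59 CPM. The scramble libraries were below all libraries of both other groups. Igkc, the kappa light chain constant region, stood at 7.9, 8.13 and 10.8 CPM in chow and fell by 1.14 ± 0.21. The gene that rose, Cd22, an inhibitory receptor of B cells, was not called when any of the 3 scramble libraries was left out. Of the neutrophil list only Csf3r, the receptor for the granulocyte growth factor, was tested, and it rose by 1.74 ± 0.37.

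Matrix genes rose broadly. Of 24 genes for fibrillar collagens, their cross-linking enzymes and associated matrix, 21 rose in each NASH diet group, with a median log2 fold change of 1.45 in the scramble comparison and 1.59 in the GFP arm. Col1a1, the main chain of type I collagen, stood at 9.3, 9.17 and 7.93 CPM in chow and 43.6, 82.6 and 63.7 CPM in scramble livers. Scramble library 2 was the highest of the 3, all were above chow, and Col1a1 rose by 2.86 ± 0.23 (edgeR adjusted p = 3.45e-05). Col3a1, of type III collagen, rose by 1.99 ± 0.17, and Postn, which encodes the matricellular protein periostin, by 2.02 ± 0.19. Of 13 matrix metalloproteinases, relatives and inhibitors, 10 rose, among them the collagenase Mmp13 by 4.42 ± 0.50 and the aggrecanase Adamts1 by 1.36 ± 0.17; 1 was called lower without chow library 1 or 3. Mmp13 had 6 counts over the 3 chow libraries and passed the filter on low counts through the NASH diet libraries. Of 13 basement membrane genes, 9 rose. Nid1, which links laminin to collagen IV, stood at 13.1, 14.7 and 8.62 CPM in chow and 34.1, 56.5 and 52 CPM in scramble livers. The basement membrane gene that was called lower, Col18a1, kept its call only without chow library 3 among the 6 analyses that each left out a library.

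Stellate cell and myofibroblast genes rose in 12 of 17 cases. The count was 9, 8 and 8 without scramble libraries 1, 2 and 3, and 10, 10 and 11 without chow libraries 1, 2 and 3. Reln, a secreted glycoprotein that marks stellate cells, stood at 45.5, 46.9 and 44.8 CPM in chow, at 112, 108 and 107 CPM in scramble livers and at 79.1, 53.9 and 67.2 CPM in GFP NASH livers. The 3 groups did not overlap; Reln rose by 1.27 ± 0.11 in the scramble comparison and by 0.58 in the GFP arm, and the test between both NASH diet groups gave a log2 difference of 0.69 (edgeR adjusted p = 0.066). Rgs5, a pericyte regulator of G protein signalling, rose by 1.35 ± 0.14 and the filament gene Vim by 1.33 ± 0.14. Acta2, the actin of myofibroblasts, named after its values were seen, was called higher at 0.75 (adjusted p = 0.047).

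Sinusoidal endothelial genes were called higher in 13 of 16 cases. In the GFP arm 6 of 16 were called higher, and 15 of 16 had a log2 fold change above 0. Between the NASH diet groups the median log2 difference of the list was 0.33, and no member was called. Stab2, the scavenger receptor that clears hyaluronan, stood at 44.1, 47 and 37.6 CPM in chow, 76.4, 90.1 and 84.2 CPM in scramble livers and 56.3, 37.8 and 61.1 CPM in GFP NASH livers. Scramble libraries were above all others for Stab2, and its difference between the NASH diet groups was 0.67 (edgeR adjusted p = 0.0926), which was not called. Cdh5, the endothelial cadherin, rose by 1.18 ± 0.14 and Mrc1, the mannose receptor, by 0.92 ± 0.13. Of 10 biliary genes 4 were called higher, and in only 1 of them did all scramble libraries lie above all chow libraries. The count was 1 without scramble library 3, 2 without chow library 1 or 2, and all 4 calls were lost without scramble library 2.

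**Figure D3:**
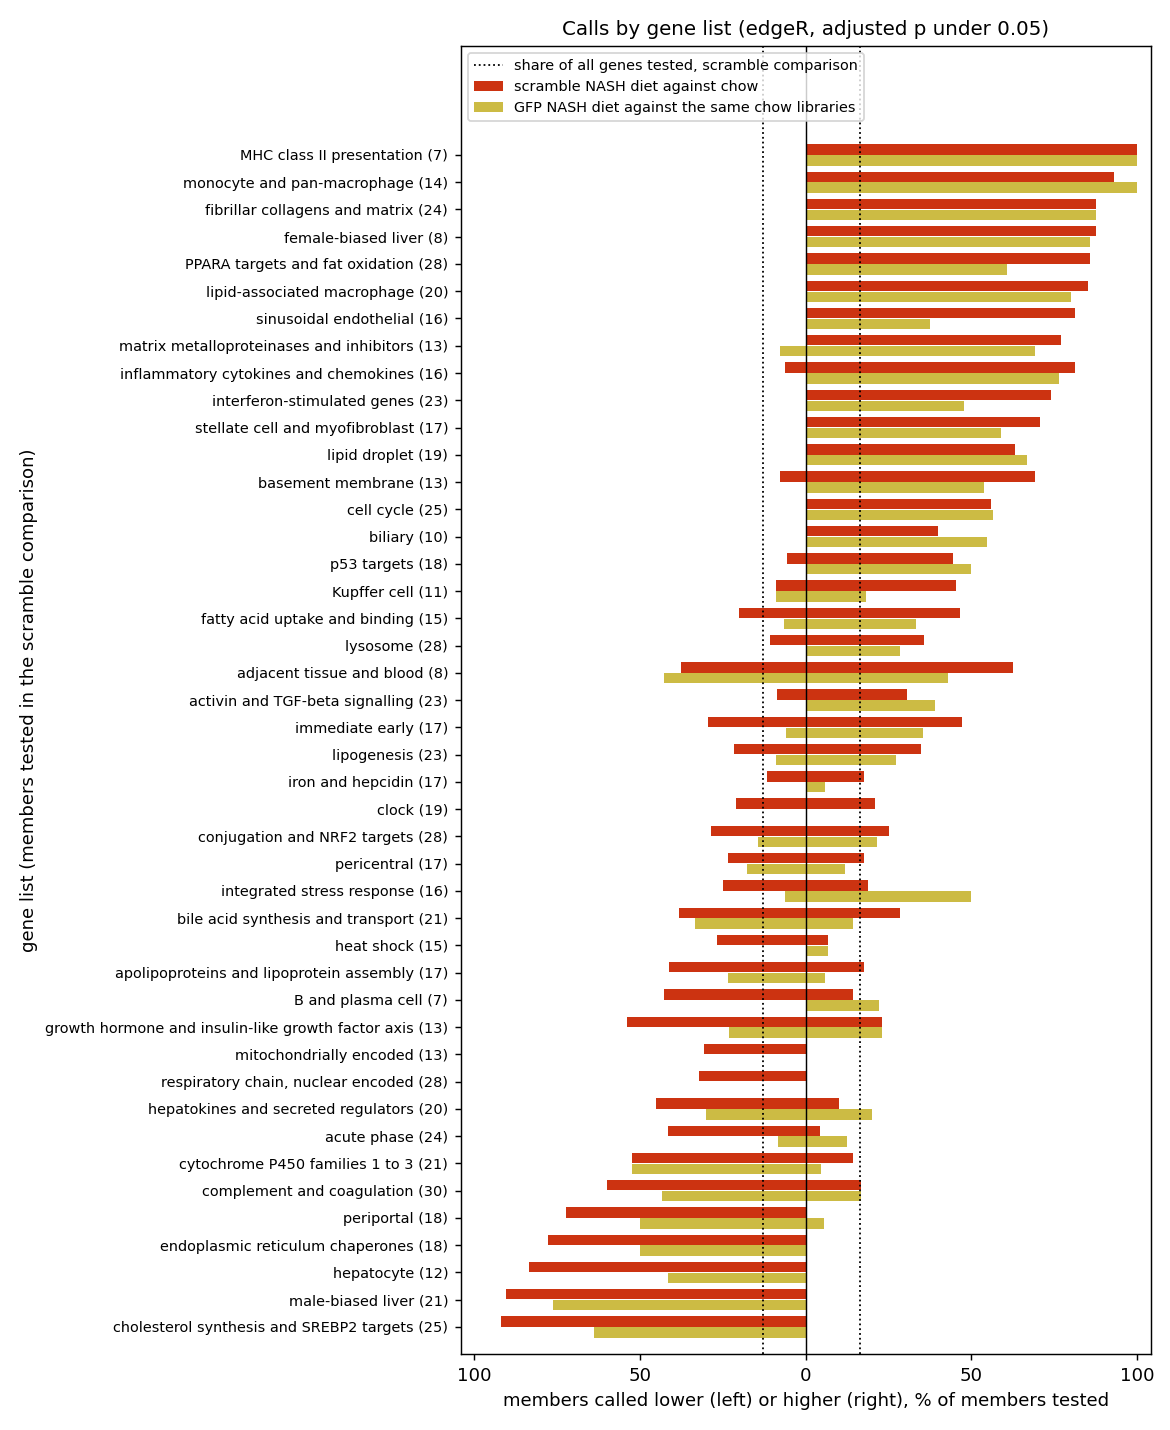
Share of each gene list called lower (bars to the left) or higher (bars to the right), as a percentage of members tested, for lists with at least 5 members tested; red bars are scramble NASH diet against chow and yellow bars are GFP NASH diet against the same chow libraries. For the female-biased list, some members passed the filter on low counts through the NASH diet libraries only. The same holds for members of other lists, among them the lipid-associated macrophage, inflammatory, metalloproteinase and lipid droplet lists. Dotted lines mark 16.5% higher and 12.8% lower over all genes tested in the scramble comparison. In the GFP arm, for which no lines are drawn, these shares were 11.2% and 5.82%. MHC class II, macrophage, matrix and PPARA lists lie at the top and the cholesterol, male-biased, hepatocyte and endoplasmic reticulum chaperone lists at the bottom.

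Activin and TGF-beta genes were mixed, with 7 of 23 called higher and 2 lower. Inhbe, a subunit of activin E made by hepatocytes, stood at 37.4, 61.9 and 41.9 CPM in chow, 148, 178 and 163 CPM in scramble livers and 90.7, 111 and 129 CPM in GFP NASH livers. The 3 groups did not overlap. The receptor Tgfbr2 rose by 1.16 ± 0.15. Besides Inhba, the transducer Smad3 was called lower, and that call was lost without any 1 of the 3 scramble libraries or without chow library 2, which leaves 1 lower call in each of these 4 analyses.

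Lipid droplet genes rose in 12 of 19 cases, with a median log2 fold change of 1.10. Cidec, which fuses lipid droplets into large ones, stood at 5.29, 9.47 and 8.97 CPM in chow and 192, 238 and 219 CPM in scramble livers. Its levels in GFP NASH livers were 206, 227 and 193 CPM. Both NASH diet groups were far above chow and overlapped, and Cidec rose by 4.80 ± 0.22 (edgeR adjusted p = 1.37e-06). Cidea, a related droplet protein of brown fat, stood at 0, 0.671 and 0.552 CPM in chow and at 37.4, 61.3 and 53.2 CPM in scramble livers. Fitm2, which helps droplets bud from the endoplasmic reticulum, rose by 1.39 ± 0.13. Aqp7, a glycerol channel, had 2 counts over the 3 chow libraries and stood at 1.76, 7.5 and 4.75 CPM in scramble livers.

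Fatty acid uptake genes split, with 7 of 15 called higher and 3 lower. Vldlr, the lipoprotein receptor, stood at 0.608, 0.373 and 1.1 CPM in chow and 16.6, 12.6 and 13.9 CPM in scramble livers, and it rose by 4.37 ± 0.30. The transporter Slc27a1 rose by 1.75 ± 0.15; its levels in GFP NASH livers were 15.2, 15.2 and 51.4 CPM, so only library 3 of that group was near the 43.6, 39.3 and 42.6 CPM of scramble livers. Lpl, lipoprotein lipase, rose by 1.64 ± 0.16. Slc27a5, the bile acid and fatty acid ligase, fell by 0.77 ± 0.13. Acsl3, an acyl-CoA synthetase of lipid droplets, fell, with 30.3, 29.9 and 31.9 CPM in chow, 11.7, 14.7 and 13.2 CPM in scramble livers and 45.2, 39 and 16.6 CPM in GFP NASH livers. Library 3 was again the GFP NASH library nearest to the scramble group.

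Lipogenesis did not move as a block: 8 of 23 members rose and 5 fell. The higher calls numbered 4 without scramble library 1 or 3 and 5 without library 2, and the lower calls numbered 3 without library 2 or 3. Scd1, the desaturase that makes oleate, had the largest gain in mean CPM of the genes called. It stood at 3229, 7053 and 5217 CPM in chow and 33702, 33934 and 33830 CPM in scramble livers, which lay far above chow with little spread. Its log2 fold change was 2.73 ± 0.26 (edgeR adjusted p = 8.74e-05), and the isoform Scd2, at 3.83, 5.29 and 5.04 CPM in chow and 21.9, 34.3 and 28.4 CPM in scramble livers, also rose. Acly, which makes cytosolic acetyl-CoA from citrate, moved the other way, with 236, 297 and 252 CPM in chow and 100, 100 and 99.7 CPM in scramble livers. It fell by 1.37 ± 0.13, and Acss2, which makes acetyl-CoA from acetate, fell by 1.01 ± 0.11. In GFP NASH livers Acly stood at 385, 214 and 87.9 CPM, a range that held the chow level, and its log2 fold change there was -0.15.

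Targets of PPARA and genes of fat oxidation rose in 24 of 28 cases, with a median log2 fold change of 1.05; in the GFP arm 17 of 28 rose. Ehhadh, of peroxisomal oxidation, stood at 230, 336 and 342 CPM in chow, 1572, 1580 and 1548 CPM in scramble livers and 827, 815 and 1853 CPM in GFP NASH livers. The scramble libraries were nearly equal, and the GFP NASH libraries were apart from each other. Acot2, a mitochondrial acyl-CoA thioesterase, rose by 4.73 ± 0.28 (edgeR adjusted p = 7.46e-06) and Cyp4a31, an omega-hydroxylase, by 3.08 ± 0.20. Aldh3a2, a fatty aldehyde dehydrogenase, stood at 263, 515 and 483 CPM in chow and 1805, 1817 and 1813 CPM in scramble livers. Cyp4a14, another omega-hydroxylase, stood at 4.68, 132 and 169 CPM in chow, where library 1 was far below the other two, and between 1915 and 2687 CPM in scramble livers. The Cyp4a genes are near copies of each other, and reads may have been split between them. Without chow library 1, 1 member of the PPARA list was called lower.

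The cholesterol synthesis pathway was lower almost throughout. Of 25 genes, 23 fell, with a median log2 fold change of -1.97; in the GFP arm 16 fell, with a median of -1.30. Idi1, the isopentenyl isomerase, stood at 107, 97.6 and 118 CPM in chow and 4.9, 6.61 and 7.01 CPM in scramble livers. The groups lay far apart, and Idi1 fell by 4.10 ± 0.17 (edgeR adjusted p = 1.19e-06). Cyp51, which demethylates lanosterol, fell by 3.58 ± 0.15. Insig1, the sterol-regulated anchor of the SREBP escort protein, stood at 423, 377 and 406 CPM in chow, 59, 59.4 and 59.4 CPM in scramble livers and 272, 178 and 64 CPM in GFP NASH livers. Of the GFP NASH libraries, library 3 alone was near the scramble level; Insig1 fell by 2.74 ± 0.12 in the scramble comparison and its log2 fold change of -1.19 in the GFP arm was not called. The test between both NASH diet groups gave -1.56 ± 0.40 for Insig1 (edgeR adjusted p = 0.10).

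Sqle, the squalene epoxidase, chosen after its values were seen, stood at 106, 66 and 91.6 CPM in chow and 4.19, 7.28 and 5.47 CPM in scramble livers. The groups lay far apart. The 9-base sterol element TCACNCCAC stood in the promoter window of 1 of 17 members with a window, Hmgcs1, and in 1.44% of all genes. The CCAAT box stood in 16 of 17 (94.1%), against 41.1% of all genes; both were searched on both strands.

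Bile acid genes went in both directions, with 6 of 21 called higher and 8 lower. Cyp7a1, the rate-limiting enzyme of bile acid synthesis, stood at 220, 135 and 134 CPM in chow, 478, 384 and 425 CPM in scramble livers and 180, 89 and 197 CPM in GFP NASH livers. Every scramble library was above every library of both other groups. Cyp7a1 rose by 1.41 ± 0.20 in the scramble comparison and its log2 fold change in the GFP arm was -0.03; the test between the NASH diet groups gave 1.44 ± 0.26 and was not called (edgeR adjusted p = 0.0614). Cyp7b1, of the alternative pathway, stood at 564, 529 and 608 CPM in chow and 85.9, 70.7 and 76.3 CPM in scramble livers, and it fell by 2.85 ± 0.13. The uptake transporter Slco1a1 fell by 1.83 ± 0.20. Abcg5, a sterol exporter, rose by 1.15 ± 0.14 and its partner Abcg8 by 0.71 ± 0.14; both genes overlap each other on opposite strands. Abcb4, which moves phospholipid into bile, rose by 1.01 ± 0.14.

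Of 17 apolipoprotein and lipoprotein genes, 3 rose and 7 fell, and only 2 fell without scramble library 2 and 1 without scramble library 3. Scaling by library size alone changed the sign of this list's median from -0.21 to 0.08. Apoa4, an apolipoprotein of intestine that fatty liver also makes, stood at 49.5, 56.7 and 59.3 CPM in chow and 1515, 2139 and 1815 CPM in scramble livers. It rose by 5.07 ± 0.18 (edgeR adjusted p = 5.21e-07). Pltp, which transfers phospholipid between lipoproteins, stood at 11.6, 34.4 and 33.7 CPM in chow, 98.7, 100 and 99.9 CPM in scramble livers and 54.9, 41.6 and 50.4 CPM in GFP NASH livers. The scramble group was the highest of the 3. Apom, the carrier of sphingosine 1-phosphate, fell by 1.18 ± 0.18.

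Genes that are higher in male than in female liver fell in 19 of 21 cases, with a median log2 fold change of -1.83, and in 16 of 21 cases in the GFP arm. Selenbp2, a selenium-binding protein, stood at 1901, 1387 and 1724 CPM in chow and 23.4, 56.7 and 42.6 CPM in scramble livers. Hsd3b5, a male-specific steroid reductase, stood at 312, 283 and 380 CPM in chow and 5.69, 6.57 and 8.56 CPM in scramble livers, without overlap, and it fell by 5.52 ± 0.20 (edgeR adjusted p = 5.21e-07). Serpina1e, of the alpha-1-antitrypsin cluster, fell by 6.74 ± 0.17, and is described with the NASH diet groups below. Mup7, a major urinary protein, stood at 16913, 9403 and 13420 CPM in chow and 720, 1313 and 1153 CPM in scramble livers. The Mup and Serpina1 genes are near copies of one another, so the share of reads given to each gene is uncertain. Moxd1, a copper hydroxylase relative, was spread in chow, at 304, 27.2 and 94.6 CPM, and stood at 0.0441, 0.176 and 0 CPM in scramble livers.

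Of 18 genes that are higher in female liver, 8 passed the filter on low counts. Some of these had few or no counts in chow and passed through the NASH diet libraries in which they are high, so the number called among the 8 is not read as a result. Cyp2b9, a steroid-metabolising cytochrome, had no counts in the 3 chow libraries and stood at 38.4, 47.4 and 44.6 CPM in scramble livers, at least 643-fold above chow when chow is set to 3 counts over its 3 libraries together. Its levels in GFP NASH livers were 13.9, 17.4 and 3.34 CPM, below each scramble library, and the difference between the NASH diet groups was 1.88 ± 0.42 on the log2 scale (edgeR adjusted p = 0.0842). Cyp2a4, a female-biased steroid hydroxylase, stood at 13, 19.9 and 15.9 CPM in scramble livers and at 109, 49.3 and 4.36 CPM in GFP NASH livers; its reads can be shared with the near copy Cyp2a5. Cyp17a1, a steroid hydroxylase, stood at 6.26, 6.26 and 6.62 CPM in chow and 55.2, 44.2 and 50.2 CPM in scramble livers. It rose by 2.98 ± 0.14, and both NASH diet groups overlapped.

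In the growth hormone axis 3 of 13 genes rose and 7 fell. Lepr, the leptin receptor, stood at 1.76, 2.91 and 2 CPM in chow and 16.1, 14 and 15.7 CPM in scramble livers, and it rose by 2.80 ± 0.22. Igfals, which stabilises circulating insulin-like growth factor, fell by 0.87 ± 0.13, and Socs2, a feedback target of growth hormone, fell by 1.86 ± 0.29. Among 20 hepatokines and secreted regulators, 2 rose and 9 fell. Enho, which encodes adropin, stood at 57.9, 19.9 and 51.3 CPM in chow and 1.15, 0.838 and 0.673 CPM in scramble livers, and it fell by 5.58 ± 0.43. Fgf21, a fasting hormone, rose by 2.97 ± 0.43, and Fetub, a secreted protease inhibitor, fell by 1.31 ± 0.14.

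Periportal genes fell in 13 of 18 cases, with a median log2 fold change of -0.90. Ass1, of the urea cycle, stood at 2867, 2910 and 2952 CPM in chow, 1096, 750 and 924 CPM in scramble livers and 1309, 1591 and 1345 CPM in GFP NASH livers. The 3 groups did not overlap, and Ass1 fell by 1.64 ± 0.15. Gls2, the liver glutaminase, fell by 1.52 ± 0.17 and Cyp2f2, a periportal cytochrome, by 0.92 ± 0.13. Without chow library 3, 2 periportal genes were called higher. Pericentral genes were mixed, with 3 of 17 called higher and 4 lower, against 16.5% higher and 12.8% lower over all genes tested. Without scramble library 2 or 3, 1 pericentral gene was called lower. Glul, glutamine synthetase, rose by 0.60 ± 0.12 and Cyp1a2 fell by 1.74 ± 0.18.

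Of 21 cytochromes of families 1 to 3, 11 fell and 3 rose. Cyp2c70, which hydroxylates bile acids in mice, stood at 720, 615 and 757 CPM in chow and 119, 87.4 and 106 CPM in scramble livers, and it fell by 2.73 ± 0.15. Cyp2c38 rose by 2.10 ± 0.35, and Cyp2c39 by 2.11 ± 0.41; both belong to a family of near copies. Of 28 conjugation and NRF2 genes, 7 rose and 8 fell. Srxn1, which repairs peroxiredoxin, rose by 1.36 ± 0.14, and Nqo1, the quinone reductase, rose from at most 7.01 CPM in chow to at least 12.3 CPM in scramble livers. Gstp1, a glutathione transferase that is higher in males, stood at 1766, 1314 and 1911 CPM in chow and 306, 279 and 284 CPM in scramble livers, without overlap, and Ces2a, a carboxylesterase, fell by 2.02 ± 0.20.

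Complement and coagulation genes went in both directions, with 18 of 30 called lower and 5 higher. C8b, of the membrane attack complex, stood at 653, 549 and 524 CPM in chow and 66.4, 52.2 and 53.7 CPM in scramble livers, and it fell by 3.31 ± 0.15 (edgeR adjusted p = 1.37e-06). C9, which forms the pore of that complex, fell by 1.99 ± 0.12. The 5 that rose were C1qa, C1qb and C1qc, the chains of C1q that macrophages make, the receptor C5ar1, and Cfd, an adipocyte protease. C1qb stood at 21.1, 26.8 and 26.9 CPM in chow and 67.2, 81.9 and 74 CPM in scramble livers. Of 24 acute phase genes, 10 fell and 1 rose in the scramble comparison, with a median log2 fold change of -0.54. Without chow library 1, 3 rose. In the GFP arm 3 of 24 were called higher and 2 lower, with a median of 0.03. Between the NASH diet groups the median log2 difference was -0.435, and no member was called. Fgb, the fibrinogen beta chain, fell by 1.21 ± 0.14, and Serpina3k, a kallikrein-binding serpin with near copies, fell by 1.87 ± 0.17. The gene that rose, Il1rn, the interleukin 1 receptor antagonist, stood at 1.64, 3.5 and 1.17 CPM in chow and 8.65, 12 and 9.19 CPM in scramble livers.

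Hepatocyte markers fell in 10 of 12 cases, with a median log2 fold change of -0.71, and in 6 of 12 without scramble library 2 or 3. The summed level of the 12 markers ran from 93600 to 125000 CPM in chow and from 66300 to 78400 CPM in scramble livers, where it remained high. Alb stood at 54756, 70472 and 82272 CPM in chow and 51325, 43344 and 46257 CPM in scramble livers. It was called lower by 0.54 ± 0.18 (edgeR adjusted p = 0.0479), and the call held in only 1 of the 6 analyses that left out a library, the one without chow library 1. The call was also lost with library size alone and with upper quartile scaling. As a share of unscaled counts Alb ran from 5.01 to 6.7% in chow and from 4.81 to 5.27% in scramble livers, which overlap. Against these hepatocyte markers, the sum of the 14 monocyte and macrophage markers ran from 158 to 164 CPM in chow and from 453 to 568 CPM in scramble livers. Whether cell makeup shifted, and its part in the changes of hepatocyte genes, was not tested.

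Chaperones of the endoplasmic reticulum fell in 14 of 18 cases in the scramble comparison, with a median log2 fold change of -1.57. In the GFP arm 9 of 18 fell, with a median of -0.65. Between the NASH diet groups the median log2 difference of the list was -0.75, and no member was called. Calr, the calcium-binding lectin chaperone, stood at 972, 1101 and 1033 CPM in chow, 286, 292 and 296 CPM in scramble livers and 545, 610 and 369 CPM in GFP NASH livers. The 3 groups did not overlap, and Calr fell by 1.81 ± 0.12 (edgeR adjusted p = 1.09e-05); the difference between the NASH diet groups was -0.83 ± 0.17 (edgeR adjusted p = 0.071). Sdf2l1, a partner of the chaperone BiP, fell by 3.14 ± 0.18, and Pdia6, a disulfide isomerase, by 1.89 ± 0.12. Hspa5, which encodes BiP, and Creld2, a secreted folding factor, were chosen after their values were seen. Hspa5 stood at 1204, 925 and 1264 CPM in chow and 355, 385 and 370 CPM in scramble livers, and Creld2 stood at 99, 65.2 and 93.6 CPM in chow and 15.4, 15.6 and 17.3 CPM in scramble livers.

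The endoplasmic reticulum stress response element, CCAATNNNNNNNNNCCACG, was searched on both strands of the RefSeq promoter windows and stood in 7 of the 16 chaperone genes with a window (43.8%), against 0.137% of all genes with a window, 37 of 27025. The 7 are Calr, Canx, Creld2, Dnajc3, Hsp90b1, Hspa5 and Pdia6; Sdf2l1 was not among them. The element contains a CCAAT box, which alone stood in 15 of the 16 (93.8%), so these motifs overlap by construction. A match is a description of the window, not evidence of binding. The stretches around it are shown for 4 of the 7 whose values are given above, to let the element be compared between them; they are RefSeq sequence of GRCm38.p6, printed 5′ to 3′ on the strand of the gene, with the element in capitals (its reverse complement in Calr and Creld2). The Hspa5 stretch is chr2:34771985-34772083 on the plus strand, Pdia6 is chr12:17266451-17266549 on the plus strand, Calr is chr8:84847035-84847133 on the minus strand and Creld2 is chr15:88819480-88819578 on the plus strand.
Hspa5: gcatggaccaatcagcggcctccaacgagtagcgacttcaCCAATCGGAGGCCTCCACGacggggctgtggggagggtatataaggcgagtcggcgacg
Pdia6: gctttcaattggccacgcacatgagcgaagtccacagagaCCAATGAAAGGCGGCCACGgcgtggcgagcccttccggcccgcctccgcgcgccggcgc
Calr: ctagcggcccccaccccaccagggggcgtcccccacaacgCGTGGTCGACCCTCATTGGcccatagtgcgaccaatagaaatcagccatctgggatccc
Creld2: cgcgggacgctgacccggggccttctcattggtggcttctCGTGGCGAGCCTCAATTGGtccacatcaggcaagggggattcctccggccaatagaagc

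**Figure D4:**
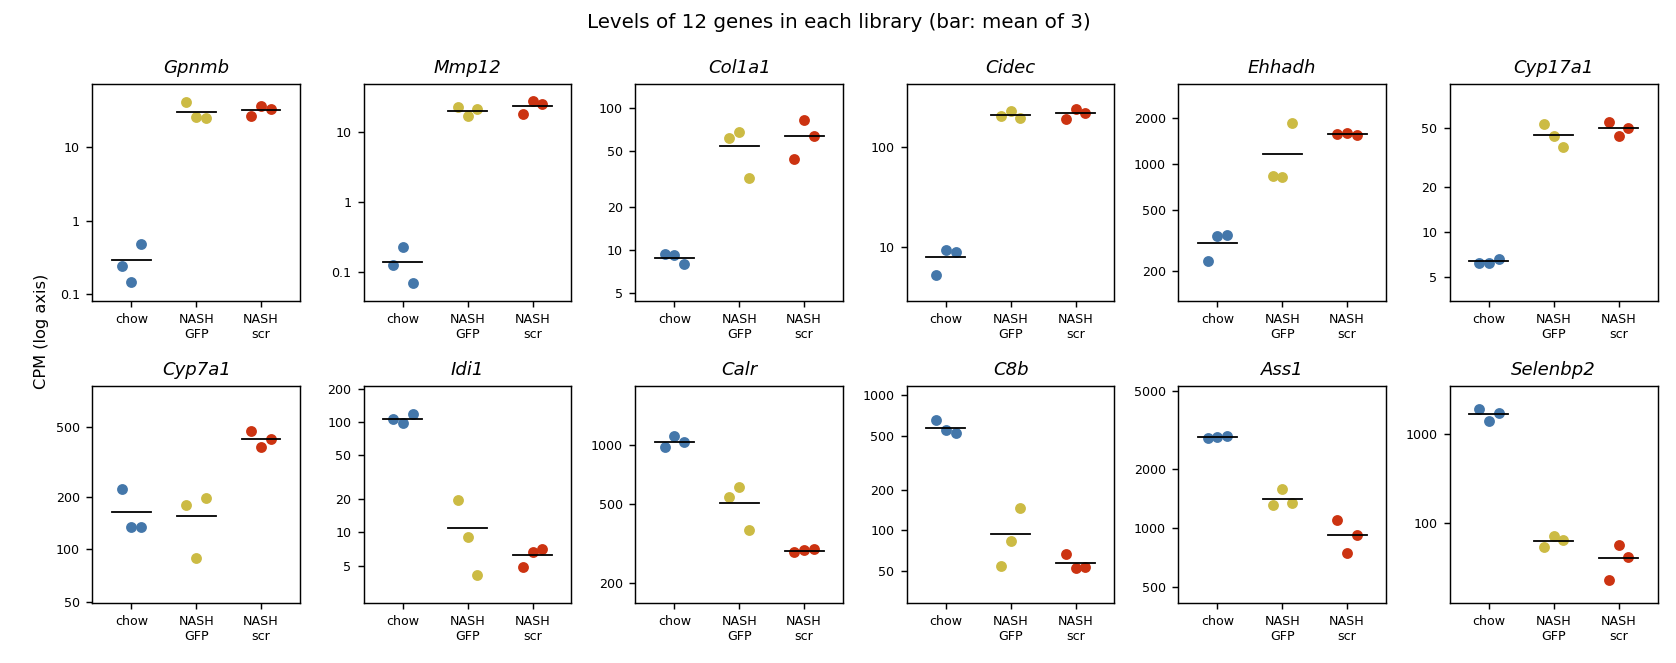
Level in CPM (log axis) of 12 genes in each of the 3 chow, 3 GFP NASH diet and 3 scramble NASH diet libraries; points are libraries and bars are means of 3. Gpnmb, Mmp12, Col1a1, Cidec, Ehhadh and Cyp17a1 are above chow in both NASH diet groups, Cyp7a1 is above chow in the scramble group alone, and the other 5 genes are below chow in both NASH diet groups.

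Among 15 heat shock genes, 4 fell and 1 rose. Lower calls numbered 2 without scramble library 1 or 2, 1 without scramble library 3 and 9 without chow library 1, and Hspb1, the one that rose, was not called without scramble library 2 or 3 or chow library 1 or 2. Hsph1, which recharges the Hsp70 chaperones, stood at 60.2, 130 and 106 CPM in chow and 45.6, 51.7 and 49 CPM in scramble livers, and it fell by 1.00 ± 0.23. Of 16 genes of the integrated stress response, 3 rose and 4 fell, and 2 fell without scramble library 2 or 3. Atf3, a stress-induced repressor, stood at 0.547, 1.27 and 0.345 CPM in chow and 5.25, 6.79 and 7.76 CPM in scramble livers, and it rose by 3.23 ± 0.40. In the GFP arm 8 of 16 rose.

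Cell cycle genes rose in 14 of 25 cases, and in 8 and 9 cases without scramble libraries 2 and 3. Ccnd1, cyclin D1, stood at 10.2, 12.8 and 7.86 CPM in chow and 43.7, 83.5 and 65.2 CPM in scramble livers, and it rose by 2.66 ± 0.26. Top2a, the topoisomerase of dividing cells, rose by 2.30 ± 0.35. Of 18 p53 targets, 8 rose and 1 fell; 4 rose without scramble library 2 and 5 without library 3. The 1 lower call, Bbc3, held only without chow library 2 among the analyses that left out a library. Eda2r, a death receptor relative, rose by 3.39 ± 0.46, and Zmat3, a p53-induced RNA-binding protein, by 1.02 ± 0.19.

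Immediate early genes split, with 8 of 17 called higher and 5 lower; 5 rose without scramble library 2 or 3. Klf6, a zinc finger factor, stood at 9.12, 9.92 and 8.83 CPM in chow and 20.3, 27.2 and 26.5 CPM in scramble livers, and it rose by 1.43 ± 0.16. Myc fell by 1.68 ± 0.27, and Dusp1, a phosphatase that ends kinase signals, fell by 0.93 ± 0.19. Of 19 clock genes, 4 rose and 4 fell, against 16.5% higher and 12.8% lower over all genes tested, and none was called in the GFP arm. Without scramble library 2 the clock counts were 2 and 1, without scramble library 3, 2 fell, and without chow library 2, 7 rose. Nfil3, a repressor of clock output, stood at 26.8, 19.5 and 39 CPM in chow and 12.9, 11.2 and 12.1 CPM in scramble livers. Ciart, a clock repressor, rose by 1.77 ± 0.29. The labels give no hour of collection, so its part in these values was not tested.

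Of 28 lysosome genes, 10 rose and 3 were called lower, the cathepsins Ctsh and Ctsl and the membrane protein Lamp2, and leaving out any 1 scramble library ended these lower calls. Ctss, the cathepsin of antigen-presenting cells, stood at 16.3, 17.6 and 31.1 CPM in chow and 62, 69.6 and 62.9 CPM in scramble livers, and Lgmn, the protease legumain, rose by 1.34 ± 0.18. Nuclear genes of the respiratory chain fell in 9 of 28 cases, and in 23 of 28 all scramble libraries were below all chow libraries, against 22.6% of all genes tested. The count of lower calls was 4, 2 and 3 without scramble libraries 1, 2 and 3, and 15 without chow library 1 or 2. With library size alone it was 2, and the median log2 fold change of these nuclear genes was -0.13, against -0.42 with TMM. In the GFP arm none of them was called, with a median of -0.27. Cox5b, of cytochrome oxidase, stood at 135, 93.2 and 147 CPM in chow and 67, 65.5 and 63.9 CPM in scramble livers. Of 13 mitochondrially encoded genes, 4 fell, 2 without scramble library 2 and 7 without chow library 1. Among them mt-Nd3, of complex I, stood at 60.2, 78.3 and 118 CPM in chow and 34.8, 23.4 and 25.1 CPM in scramble livers. With library size alone the median log2 fold change of the mitochondrially encoded genes was -0.07, against -0.355 with TMM. In the GFP arm none of them was called, with a median of -0.44.

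Of 17 iron genes, 3 rose and 2 fell, near the shares over all genes tested of 16.5% higher and 12.8% lower. Without scramble library 2 or 3, 1 rose and none fell, and 5 rose without chow library 3. Hamp, the iron hormone hepcidin, stood at 458, 491 and 902 CPM in chow and 376, 211 and 289 CPM in scramble livers, and its fall of 1.06 ± 0.27 was not called without scramble library 2 or 3. Slc40a1, the iron exporter ferroportin, rose by 0.67 ± 0.14. Of 8 genes tested that mark blood or adjacent tissue, 5 rose and 3 fell, and in the GFP arm 3 of 7 rose and 3 fell. The 5 were the globin genes Hba-a1, Hba-a2, Hbb-bs and Hbb-bt, and Cfd; the 3 were Cela1, an elastase of exocrine pancreas, Car3, a carbonic anhydrase of fat and liver, and Alas2. Hba-a1 stood at 2.98, 6.04 and 8.21 CPM in chow, 15, 10.1 and 29 CPM in GFP NASH livers and 35, 24.1 and 25.3 CPM in scramble livers. Alas2, the heme enzyme of red cell precursors, fell by 1.17 ± 0.14. Globin genes are near copies, and the part of blood content in other results was not tested. Several genes named above overlap a gene on the opposite strand, among them Cidea, Enho, Hsd3b5, Apoa4, Csf1r, Cyp51, Ccnd1 and Alas2, and without the strand setting of the counting their values are uncertain.

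The last comparison asked where the scramble and GFP NASH diet groups differed, which is the test of whether the change from chow differs between them and holds no chow library. Of 15103 genes, 20 were higher and 29 lower in scramble livers (0.324%), and 2891 had an unadjusted p under 0.05. The count turned on GFP NASH library 3: without it, 997 genes were higher and 1035 lower. The counts were 16 and 37 without GFP NASH library 1 and 6 and 16 without library 2. Leaving out scramble library 1, 2 or 3 left 2, 2 and 0 higher genes and 5, 4 and 3 lower genes. DESeq2 called 290 higher and 435 lower over all 6 libraries. Of the genes called, 6 of the higher and 8 of the lower were pseudogenes, and Rpl39, Rps29, Rpl36a and several ribosomal protein pseudogenes were among them, whose reads can be shared with near copies.

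Igfbp1, a binding protein of insulin-like growth factor that insulin represses, went in opposite directions in the NASH diet groups. It stood at 82.2, 71.3 and 126 CPM in chow, 226, 325 and 263 CPM in GFP NASH livers and 48.8, 65.6 and 60.2 CPM in scramble livers. The GFP NASH libraries were above chow and the scramble libraries below it. Igfbp1 rose by 1.59 in the GFP arm and fell by 0.66 ± 0.20 in the scramble comparison, the latter not called when any scramble library was left out; the difference between the NASH diet groups was -2.25 ± 0.16 (edgeR adjusted p = 0.0017). Serpina1e stood at 16265, 13302 and 14913 CPM in chow, 533, 628 and 846 CPM in GFP NASH livers and 135, 142 and 134 CPM in scramble livers. It was lower than chow in both and lowest in the scramble group, by -2.31 ± 0.17 between the NASH diet groups (edgeR adjusted p = 0.0017). Btg2, an antiproliferative target of p53, stood at 64.3, 63.5 and 53.2 CPM in GFP NASH livers and 18.2, 24.2 and 20.2 CPM in scramble livers, whose range overlapped that of chow. These 3 genes, and no other of the 16 named for this comparison, were called in each of the 6 analyses that left out a library.

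**Figure D5:**
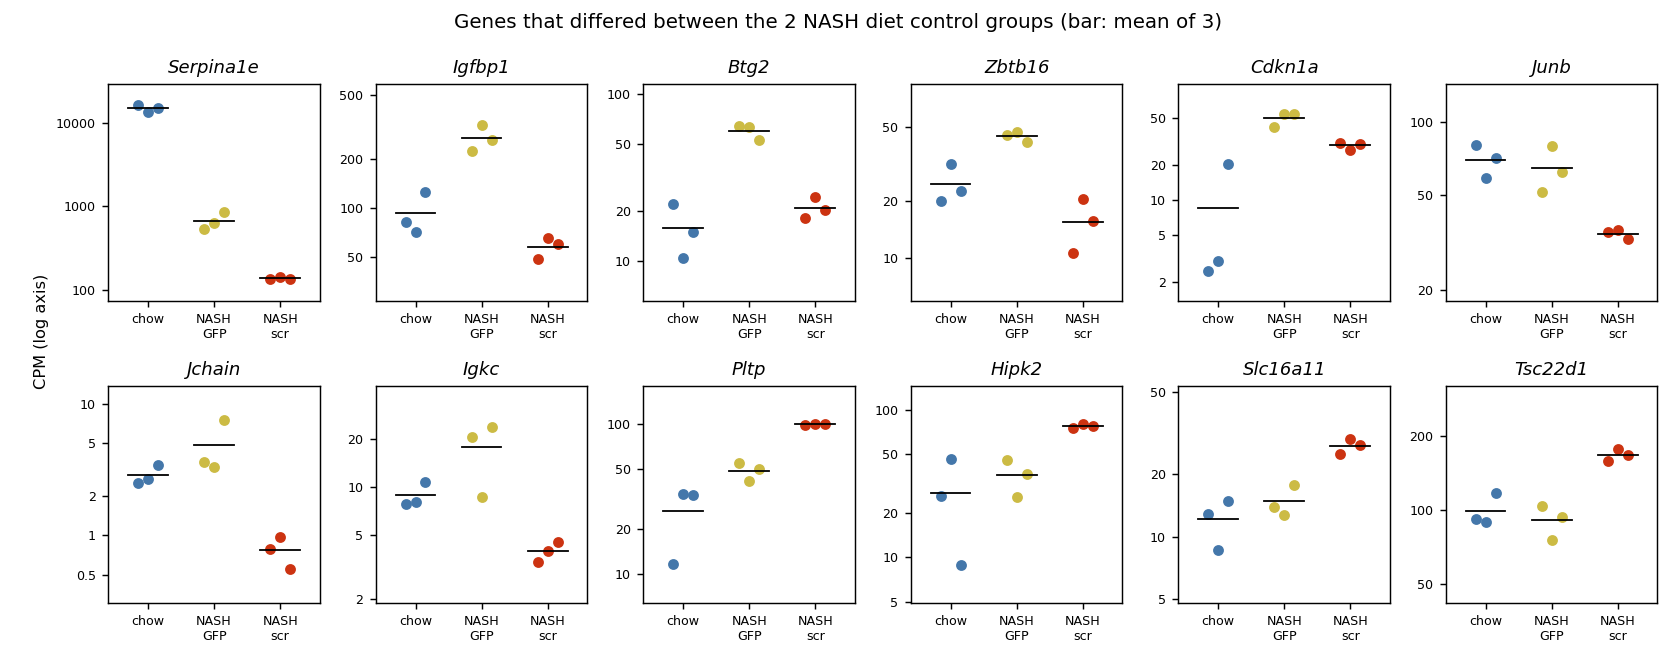
Level in CPM (log axis) of 12 genes that differed between the scramble and GFP NASH diet groups, in each library of the chow, GFP NASH diet and scramble NASH diet groups; points are libraries and bars are means of 3. Igfbp1, Btg2, Zbtb16, Cdkn1a, Junb, Jchain and Igkc are lower, and Pltp, Hipk2, Slc16a11 and Tsc22d1 higher, in scramble than in GFP NASH livers, while Serpina1e is below chow in both.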

How the data were processed

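Liver RNA was made into stranded mRNA libraries, per the labels' protocols. The authors deposited raw read counts per gene, in tables of one comparison each, per the file headers, which also give gene positions and lengths. GRCm38 and mm10 stand in the submitters' processing notes; the aligner, the counter and its strand setting were not given in the sources used here.

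Tables were joined on the gene identifier over the 22365 genes in both; 1597 stood only in the diet table and 2306 only in the hairpin table. Another 42 columns of per-sample or per-group values were not used, and 22 symbols turned into dates were restored. Genes were filtered with filterByExpr (minimum count 10), scaled by TMM and tested with edgeR 4.0.16 (R 4.3.3; glmQLFit, glmQLFTest) on the 6 libraries of each comparison, with Benjamini-Hochberg adjustment over all genes tested and a threshold of 0.05. CPM values use TMM library sizes. Total counts, 15276879 to 23467867 per library, limit the precision of low genes. Counts were simulated for the scramble comparison (14331 genes) with 100 genes changed 2-fold and 100 changed 4-fold. The test recovered 69% of 2-fold and 90% of 4-fold changes and made 14 false calls. The simulated libraries were independent, and a far smaller share of genes changed than the 29.3% called in the data. Recovery in the data may therefore differ.

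Named genes are Gpnmb and Inhba; the 8 highest and 8 lowest folds among calls whose mean level reached 1 in log2 CPM, with groups that do not overlap and a plain symbol; the 8 called genes per direction with the largest difference in mean CPM; from each of 46 lists the 3 called members with the smallest p and those called against the direction of the list; and the 6 highest and 6 lowest genes between the NASH diet groups, with list members called there. Some genes that this rule names are not reported here. Other genes are said to be chosen after their values were seen; Hmgcs1 and the ribosomal genes are named from short lists only. The members and lists were chosen with earlier results of these data known. Alternatives were DESeq2 1.42.0, limma 3.58.1 (voom), library size alone, upper quartile, no filter, a replicate block, all 15 libraries, genes in either table, and each library left out. Promoter windows came from RefSeq (GRCm38.p6).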

Additional observations from a re-analysis of the deposited data

Results flagged for a closer look

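The change from chow differed between the scramble and GFP NASH diet groups for 16 named genes, by edgeR's quasi-likelihood test of scramble NASH diet over GFP NASH diet (3 libraries each, adjusted p under 0.05 over 15103 genes). Values are log2 fold changes. Lower in scramble livers were Jchain at -2.66, Serpina1e at -2.31, Igfbp1 at -2.25, Igkc at -2.17, Btg2 at -1.55 and Zbtb16, a zinc finger repressor, at -1.53. Also lower were Junb at -0.93, Cdkn1a at -0.80, Atf5 at -0.65 and Jund at -0.59. Higher in scramble livers were Hipk2, a nuclear kinase, at 1.09, Pltp at 1.00, Rpl39 at 0.90, Slc16a11, a transporter of monocarboxylates, at 0.87, Tsc22d1 at 0.86 and Atp5k at 0.82. Serpina1e, Igfbp1 and Btg2 were called in all 6 analyses that each left out a library, and the other 13 in 1 to 4 of them. With limma-voom, Igkc (adjusted p = 0.079), Jchain (0.0668) and Junb (0.0553) were not called. In edgeR with library size alone, Jchain, Igkc, Junb, Zbtb16, Atf5, Jund, Hipk2, Tsc22d1 and Slc16a11 were not called, with adjusted p from 0.0522 to 0.0671. Overlapping genes on the opposite strand were expressed at Pltp, Junb, Atf5 and Hipk2.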

How the results depend on the processing

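Of 195 named genes called in the scramble comparison, 160 were called under all 14 alternatives, and no alternative reversed a direction. Scaling by library size alone gave 4218 higher and 817 lower genes for scramble against chow, 2671 and 405 for GFP NASH against chow, and 10 and 13 for scramble against GFP NASH. It also changed the sign of the median of the bile acid list (-0.16 to 0.13), the conjugation list (-0.06 to 0.22), the clock list (-0.04 to 0.24) and the iron list (-0.13 to 0.15). With all 15 libraries in the fit, GFP NASH against chow gave 2476 and 2019, and scramble against GFP NASH gave 88 lower. For scramble against GFP NASH, DESeq2 gave 290 and 435, and no filter on low counts gave 80 and 136. Leaving out each library in turn gave 1401 to 2460 higher and 925 to 2346 lower for scramble against chow, 971 to 1472 and 384 to 797 for GFP NASH against chow, and 0 to 997 and 3 to 1035 for scramble against GFP NASH. The causes were not tested. Low counts limit lymphocyte, neutrophil and female-biased genes, most of which were not tested.

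Samples with the same replicate number did not deviate together in scramble and chow (correlations of -0.049, 0.003 and -0.018). The correlations were -0.215, 0.074 and -0.039 for scramble and GFP NASH, and -0.12, -0.289 and -0.224 for GFP NASH and chow. With 3 libraries per group, these values cannot show whether a shared number marks a shared batch. With the replicate block, 2349 genes were higher and 1621 lower for scramble against chow, 1130 and 467 for GFP NASH against chow, and 26 and 43 for scramble against GFP NASH.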
